A study of Mus musculus with 719 samples.

Results

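Single ON-OFF direction-selective ganglion cells, taken from mouse retina at postnatal day 8 (P8), were compared with the same kind of cell at P10 and P12. The members are all cells of the HB9-GFP line labelled as preferring downward motion at these ages, which makes 36 cells at P8, 49 at P10 and 29 at P12, or 114 of the 719 cells of the series. HB9-GFP mice carry a green fluorescent protein transgene whose expression marks a subset of ON-OFF direction-selective cells. By the labels' account, papain was used to free the cells, which were labelled with fluorescent cholera toxin B, and live cells with that label and without the microglial surface protein CD11b were sorted singly. Libraries were made by Smart-seq2, which copies polyadenylated transcripts along their whole length. Other HB9-GFP cells were 40 at P4, 38 at P5 and 45 at P14. ON cells of the Spig1-GFP line served as the comparison group, with 28, 45 and 43 cells labelled up and 31, 32 and 40 labelled down at P8, P10 and P12. No label names an animal, a litter or the animals' sex, and no treatment is given for any of these groups. All cells of a group at an age were therefore 1 pool, with the mean over its cells of the scaled fragment signal in CPM as its value, and cells were not counted as replicates.

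A direction-selective ganglion cell fires when an image moves in its preferred direction and stays silent for motion the opposite way. ON-OFF cells respond to bright and dark edges alike, receive excitation from bipolar cells and inhibition from starburst amacrine cells, and send their axons to the brain. The days studied lie just before the mouse opens its eyes, when ganglion cells are known to be completing their synaptic inputs and maturing their firing.

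The cells carried ganglion cell transcripts at every age. Rbpms, an RNA-binding protein of ganglion cells, had a fragment in 36 of 36 cells at P8, 49 of 49 at P10 and 28 of 29 at P12 and so did Slc17a6, the vesicular glutamate transporter. Rbpms itself had means of 837, 615 and 409 CPM, a difference of -0.44 at P10 and -1.02 at P12 on the log2 scale used below. Calb2, the calcium-binding protein calretinin, had means of 2325, 2944 and 2965 CPM in the 3 ON-OFF pools, against 13.6 to 736 CPM in the 6 ON pools of the same ages. Mnx1, the gene whose human name HB9 gives the line its name, was low in ON-OFF cells, at 5.94, 4.66 and 3.53 CPM, and was at 0 in the 6 ON pools. It had a fragment in 32 of 36, 35 of 49 and 16 of 29 ON-OFF cells. Cartpt, a peptide precursor used as a marker of ON-OFF direction-selective cells, had a fragment in 19 of 36, 26 of 49 and 17 of 29 cells, or 52.8%, 53.1% and 58.6%. Of 14 measured genes of the ON-OFF marker list, 6 lay above P8 at both later ages and 3 below, with median log2 differences of 0.46 at P10 and 0.02 at P12. Cartpt and Calb1 were the members called higher by the rule given below, which calls 1.31% of all genes higher and 1.86% lower, and 0 were called lower. The members Pcdh11x, Cpne4 and Tfap2d had mean differences of -0.13, -0.39 and -0.22.

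Fewer genes were detected per cell at the later ages, and fewest at P12. A gene counts as detected at 0.5 fragments or more. The median cell held 7561 genes at P8 (5251 to 9279), 6586 at P10 (3311 to 8905) and 5738 at P12 (2655 to 7624). The order was opposite to that of depth, since the median number of fragments per cell was 844662 at P8, 1019550 at P10 and 1044295 at P12, and single cells ranged from 165183 to 1782793. After each cell was thinned to 100000 fragments, which no cell fell short of, the medians were 6394, 5525 and 4681 genes. Among the ON-OFF pools P14 had the highest median, 8608 genes, while the ON up and ON down pools at P8 had 8989 and 8868. Cells with at least 5000 genes were 36 of 36 at P8, 41 of 49 at P10 and 19 of 29 at P12. The summed level of 10 measured genes of the mitochondrial genome was also highest at P12, at 22376 CPM at P8, 22390 at P10 and 31693 at P12. The part of detection and of mitochondrial RNA in the results below was not tested.

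**Figure D1:**
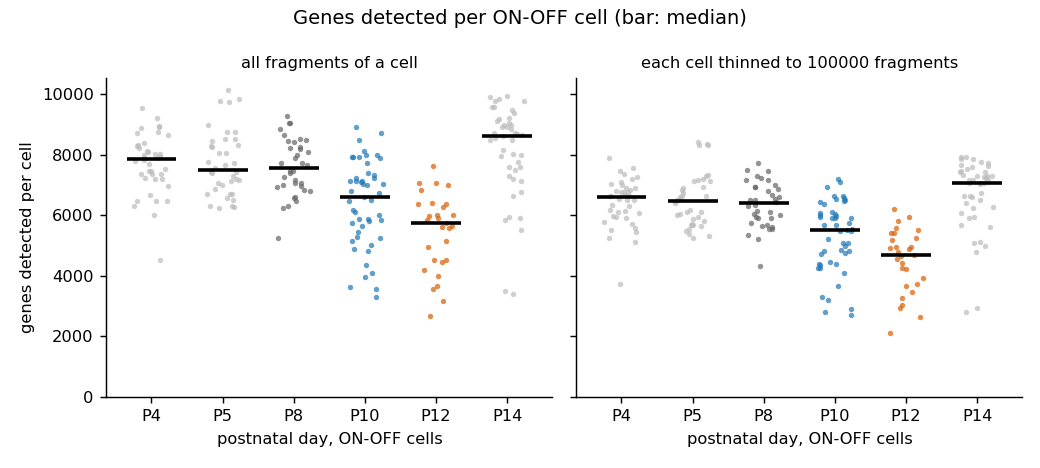
Genes detected in each ON-OFF cell (y axis) by postnatal day (x axis), with all fragments of a cell on the left and after thinning each cell to 100000 fragments on the right. Each point is a cell and each bar a median, and the P12 medians of 5738 and 4681 are the lowest of the 6 ages on either scale.

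Detection and the balance of higher and lower genes both varied with a gene's level. Among 3838 genes with a mean of 5 to 20 CPM, the median gene had a fragment in 27.8% of cells at P8, 20.4% at P10 and 13.8% at P12. In this class, 299 genes were lower by 2-fold or more at P10 and 214 higher, and at P12 736 were lower and 280 higher. Among 5459 genes of 20 to 100 CPM the shares were 66.7%, 53.1% and 41.4%, with 169 lower and 194 higher at P10 and 708 lower and 288 higher at P12. Among 2070 genes of at least 100 CPM the median shares were 97.2%, 89.8% and 82.8%, with 5 lower and 46 higher at P10 and 92 lower and 100 higher at P12. Over all genes P10 had 454 of 11367 genes higher than P8 by 2-fold or more (3.99%) and 473 lower (4.16%). At P12, 668 genes were higher (5.88%) and 1536 lower (13.5%). In either direction 8.16% of genes lay 2-fold or more from P8 at P10 and 19.4% at P12, against 4.79% and 7.17% in ON up cells and 8.89% and 10.8% in ON down cells. The median gene differed from P8 by -0.02 at P10 and by -0.13 at P12 on the log2(CPM + 5) scale. For this reason genes were kept only where both later ages differed from P8 in the same direction by 2-fold or more on that scale, a scale that understates the change of genes near or below 5 CPM.

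By this rule 149 of 11367 genes were higher than P8 at both P10 and P12 (1.31%) and 211 were lower (1.86%), together 3.17%. No gene passed limma, which was fitted to the 9 ON-OFF and ON pools at these ages with Benjamini-Hochberg adjustment at 0.05. Its p-values rest on the spread between the P10 and P12 pools within each group, which can include change with age. The P8 pools give no spread of their own and were assumed to vary alike. The smallest adjusted p for ON-OFF cells was 0.0935, for Xist, and 819 genes (7.21%) had an unadjusted p under 0.05, of which 372 were higher (3.27%) and 447 lower (3.93%). The 2-fold rule is a description without a test, and both later ages are set against the same P8 pool, so a P8 mean that is high or low through its own 36 cells meets it as well. Siah1a and Chgb lay at the upper edge, with smaller differences of 1.002 just inside and 0.9995 just outside. At the lower edge Chac2 lay at -1.001 and Slc35c2 at -0.9989. Of the called genes, 27 higher and 4 lower ones lay at 100 CPM or above, against 51 higher and 131 lower ones under 20 CPM.

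**Figure D2:**
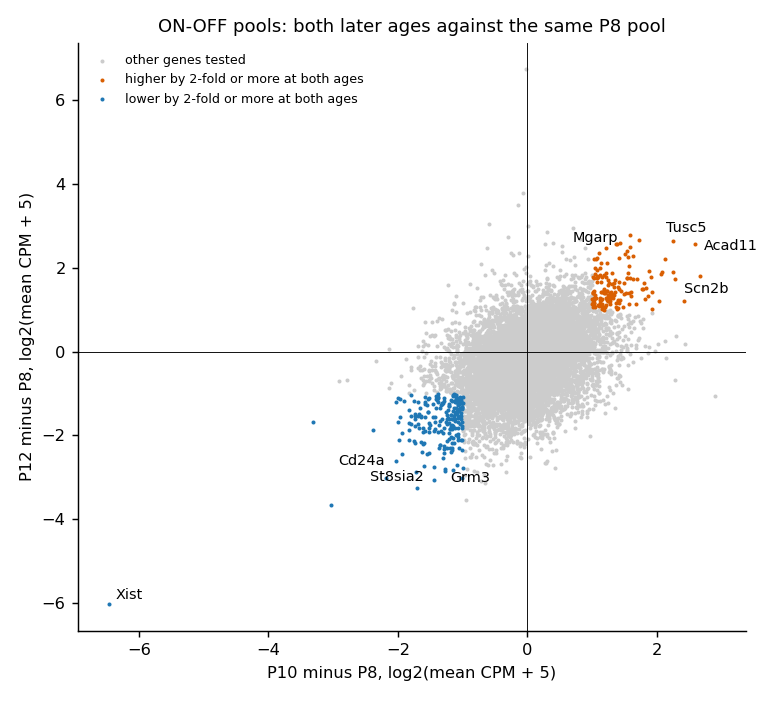
Difference from P8 in log2(mean CPM + 5) at P10 (x axis) and at P12 (y axis), with a point for each of 11367 genes. The 149 genes higher by 2-fold or more at both ages are orange and the 211 lower ones blue, and Xist lies alone at the lower left.

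Separate sets of cells shared some of these genes. In the deposited table of cells the numbering of libraries restarts, which divides each pool into sets of nearly equal size (18 and 18 cells at P8, 25 and 24 at P10, 15 and 14 at P12). The first set gave 339 higher genes (2.98%) and the second 342 (3.01%), of which 28 were shared, or 8.26% and 8.19% of each list. For lower genes the lists held 601 (5.29%) and 423 (3.72%), of which 44 were shared, or 7.32% and 10.4%. Against these, 13 of the 339 genes higher in the first set were lower in the second, where 3.72% of all genes were lower. Of the 601 genes lower in the first set, 24 were higher in the second, where 3.01% of all genes were higher. The 28 shared higher genes include Cartpt, Scn2b, Abcg1, Gria3, Chga, Clstn2, Acad11 and Aifm1, and the 44 shared lower genes include Cd24a, St8sia2, Selenon, Tmem97, Pknox1, Wdr59 and Cdc42ep4. Each of these genes met the rule in sets that share no cell. Both sets are parts of the pools that gave the calls, however, and no label says whether they share animals. Shared genes further include Ddx3y, a gene of the Y chromosome, as higher and Xist and Tsix as lower. The difference in Xist makeup described below is thus present in both sets.

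Ages that the rule did not use also differed for the called genes. P14 was set against the mean of P4 and P5, with no P8, P10 or P12 cell in the comparison. Of the 149 higher genes, 53 were at least 2-fold higher at P14 (35.6%, against 6.19% of all genes tested) and 6 at least 2-fold lower (4.03%, against 7.39%). Of the 211 lower genes, 54 were at least 2-fold lower at P14 (25.6%, against 7.39%) and 19 at least 2-fold higher (9%, against 6.19%). The median differences were 0.55 and -0.36, beside -0.08 over all genes. P8 was also the lowest of the 6 ages for 70 of the 149 higher genes (47%, against 9.11% of all genes tested). It was the highest for 95 of the 211 lower genes (45%, against 10.9%). The rule itself sets P8 apart from P10 and P12, which raises these shares. The part of the P8 pool's own cells in them was not tested.

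**Figure D3:**
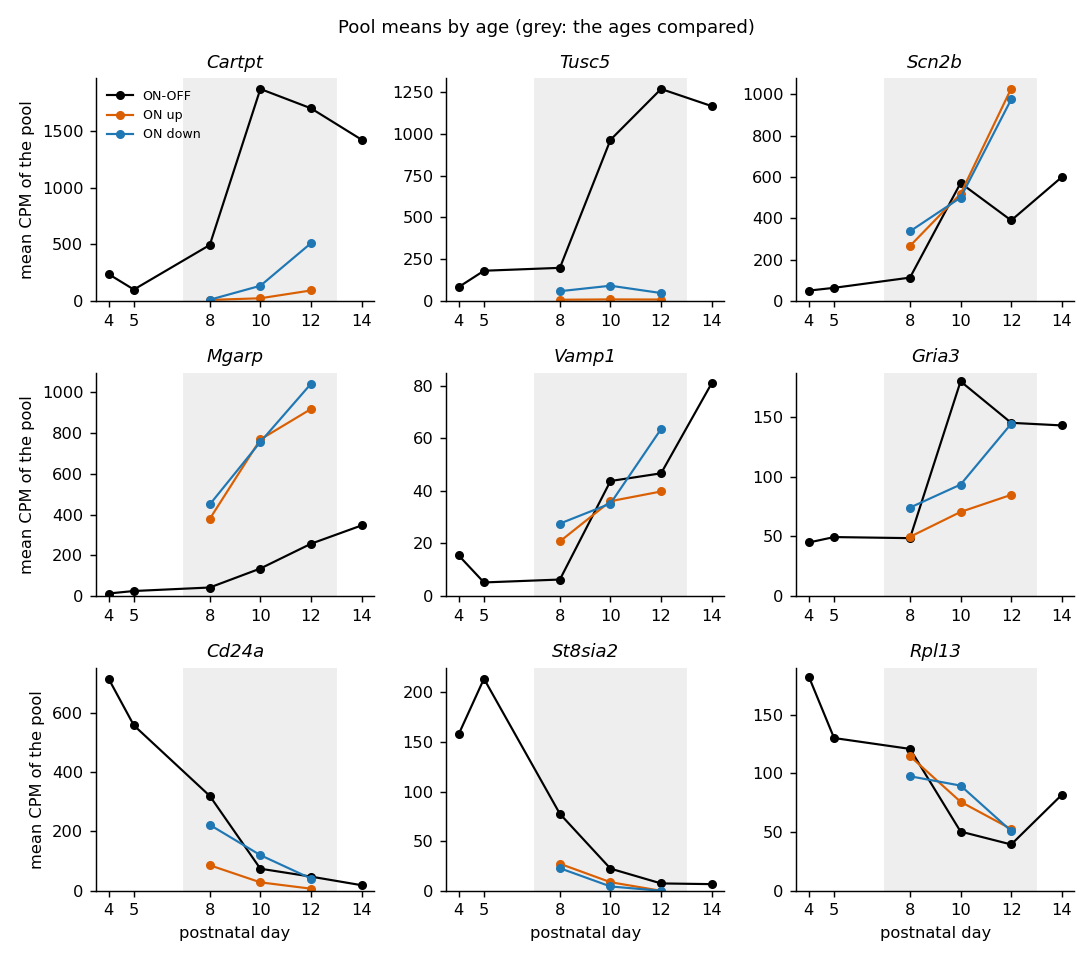
Mean CPM of each pool (y axis) by postnatal day (x axis) for 9 genes, in ON-OFF cells (black), ON up cells (orange) and ON down cells (blue). The shaded ages are those compared, and Cd24a and St8sia2 reach their lowest ON-OFF levels at P14 while Scn2b, Mgarp and Vamp1 reach their highest there.

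Xist, the RNA that silences an X chromosome in female cells, differed between the pools more than any other gene that met the rule. It had a fragment in 19 of 36 cells at P8, 2 of 49 at P10 and 2 of 29 at P12, and a gene of the Y chromosome in 18, 44 and 22 cells. Mean Xist levels were 440.5, 0.04 and 1.83 CPM. At the other ages an Xist fragment was found in 22 of 40 cells at P4, 6 of 38 at P5 and 1 of 45 at P14. The comparison of P14 with P4 and P5 thus also differs in its share of such cells. Xist (chromosome X, 103460366 to 103483254) overlaps its antisense partner Tsix in the deposited gene models, and no source used here says whether fragments were counted by strand. Age and this makeup cannot be told apart in the pools as they stand, so each gene below was also compared in the 17, 47 and 27 ON-OFF cells without an Xist fragment. In those cells 108 of the 149 higher genes and 162 of the 211 lower genes still met the rule, while the counts over all genes were 357 higher (3.14%) and 434 lower (3.82%). Nearly all P10 and P12 cells that gave the calls are among them, so kept calls are no separate test of this makeup.

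Of 22 measured neuropeptides and secreted factors, 4 were higher by the rule (18.2%, against 1.31% of all genes) and 0 lower, with median differences of 0.45 at P10 and 0.36 at P12. Cartpt (chromosome 13, 99898489 to 99901091, GENCODE M21 on GRCm38, as for all positions here) ran from 0 to 2354 CPM over P8 cells with a median of 15.6, from 0 to 16579 with a median of 64.9 at P10, and from 0 to 7662 with a median of 687 at P12. The ranges overlap and cells at 0 were found at each age. Among cells with a fragment the medians were 926, 1778 and 2625 CPM, so the level in those cells differed more than their share. The pool means were 494.9, 1872 and 1701 CPM, which is 3.78-fold and 3.44-fold above P8 (limma log2 1.84 ± 0.76 SE, unadjusted p = 0.0371, adjusted p = 0.684). Both sets of cells gave 1.60 or more at each age, and cells without Xist gave 2.14 and 1.82. Earlier levels were 238 CPM at P4 and 102 at P5, and the P14 level was 1424.

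Scg2 and Chga, granins that form the core of dense secretory granules, were higher more evenly over cells. Scg2 had fragments in 94.4%, 85.7% and 89.7% of cells and means of 351, 722 and 758 CPM. Chga had medians per cell of 24.7, 65.7 and 62.5 CPM and means of 36.3, 91.6 and 107 CPM. In cells without Xist, Chga had 18.3, 91.6 and 97.2 CPM. Chgb, another granin, missed the threshold by the margin given above. Fgf1, an acidic fibroblast growth factor, was at 2.41, 14.2 and 38.8 CPM and reached 106 at P14. Its first set of cells gave differences of 2.12 and 2.68 and its second -0.25 and 2.44, so the P10 difference rests on 1 set.

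Among sodium channel genes an accessory subunit stood highest. Of 11 measured, 2 were higher by the rule (18.2%, against 1.31% of all genes) and 0 lower, with medians of 0.33 and 0.48. Scn2b (chromosome 9, 45117782 to 45130070), an auxiliary beta subunit, ran from 0 to 361 CPM at P8 with a median of 98.5, from 0 to 2244 at P10 with a median of 492, and from 0 to 1739 at P12 with a median of 207. The groups overlap, but no P8 cell was above 361 CPM while the median P10 cell was. A fragment was found in 34 of 36, 48 of 49 and 22 of 29 cells. Means were 113, 571 and 389.9 CPM (limma log2 2.01 ± 0.47 SE, unadjusted p = 0.00168, adjusted p = 0.643), and the P14 mean was 599. Both sets of cells gave at least 1.63 at each age. Fgf14, an intracellular partner of sodium channels, had means of 22, 56.6 and 66.4 CPM, but its first set gave only 0.96 and 0.27. Among the pore-forming subunits, which did not meet the rule, Scn1a had means of 202, 372 and 371 CPM and Scn8a had 97.6, 159 and 138 CPM. Of 39 measured potassium channel genes 0 met the rule, with medians of 0.11 and 0.06.

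**Figure D4:**
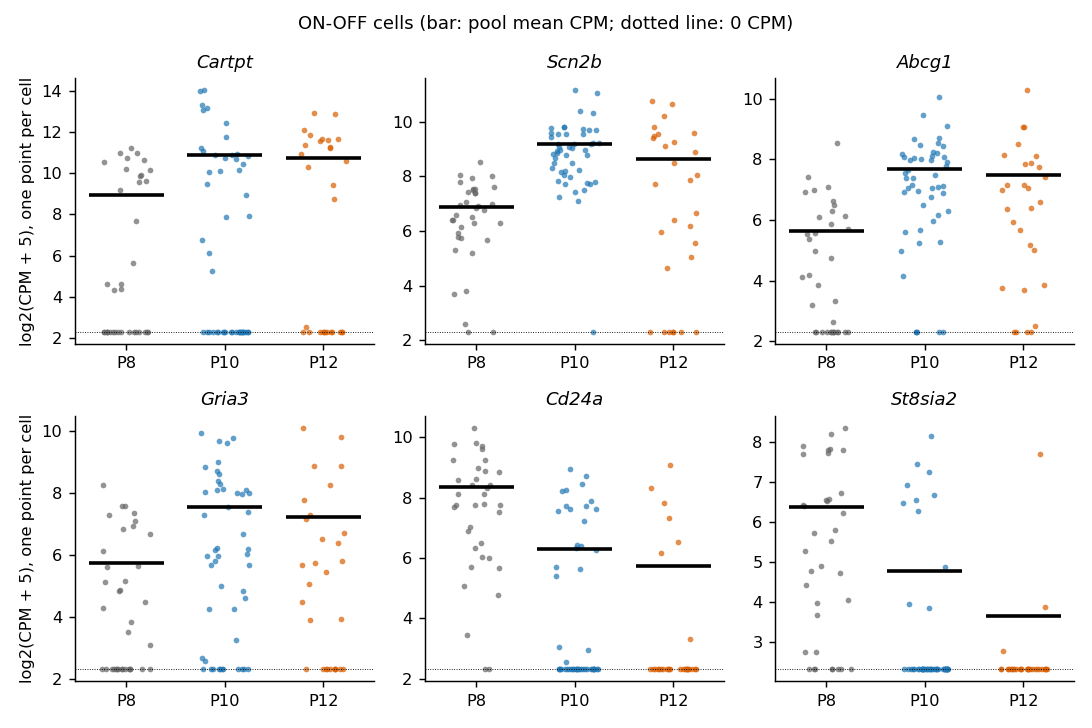
Level of 6 genes in each ON-OFF cell as log2(CPM + 5) (y axis) at P8, P10 and P12 (x axis), with a point per cell, a bar at the pool mean and a dotted line at 0 CPM. Cd24a and St8sia2 have most cells on the dotted line at P12, whereas Cartpt has a like share of cells there at each age.

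Receptor genes differed gene by gene. Gria3 (chromosome X, 41400854 to 41678601), a subunit of AMPA-type glutamate receptors, had medians per cell of 11.8, 59.5 and 38.9 CPM and reached 302, 971 and 1089 CPM in its highest cells. Its means were 48.5, 180 and 145 CPM (limma log2 1.64 ± 0.35 SE, unadjusted p = 0.00096, adjusted p = 0.643). The first set of cells gave 1.70 and 1.48, the second 1.86 and 1.52, and cells without Xist 1.96 and 1.57. Gria3 stood at 44.9 CPM at P4 and 49.4 at P5. Gria2, the subunit that limits calcium entry, had means of 344, 282 and 199 CPM and did not meet the rule. Grm3, a metabotropic glutamate receptor coupled to inhibitory G proteins, was lower, at 36.2, 12.1 and 0.89 CPM, with a fragment in 44.4%, 24.5% and 6.90% of cells. Without Xist-positive cells its P10 difference was -0.47 and its P12 difference -2.03. Of all 30 measured glutamate receptor genes and partners, 1 was higher and 1 lower (3.33% each, against 1.31% and 1.86% of all genes).

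Slc12a5, the chloride exporter KCC2, had means of 139, 214 and 218 CPM without meeting the rule. Among 9 measured acetylcholine receptor genes, 1 was higher (11.1%, against 1.31% of all genes) and 0 lower, with medians of 0.65 and 0.46. That gene was Lypd6, a membrane-anchored protein that binds nicotinic receptors, at 26.2, 75.2 and 181 CPM. Its relative Lynx1 had 128, 259 and 329 CPM, with differences of 0.99 and 1.33 that just miss the rule. The nicotinic subunits Chrna6 and Chrnb3, both abundant in ganglion cells, differed by 0.61 and 0.74 on average.

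Release genes leaned upward as a list. Of 25 measured synaptic vesicle genes 18 lay above P8 at both ages and 3 below, against 27.4% and 36.7% of all genes. Only 2 met the rule, both higher (8%, against 1.31% of all genes). Medians were 0.39 and 0.43. Vamp1, a vesicle SNARE protein, had means of 6.24, 43.8 and 46.7 CPM (limma log2 2.16 ± 0.44 SE, unadjusted p = 0.000669, adjusted p = 0.643) and 81 at P14. Its fragment was found in 36.1%, 55.1% and 48.3% of cells, and in 30.6%, 51% and 41.4% after thinning. The first set gave only 0.53 at P12. Syt2, the calcium sensor of fast release, was at 3.05, 16.7 and 14.1 CPM, close to the pseudocount. Snap25, by far the more abundant, had means of 4673, 5138 and 6498 CPM and differences of 0.14 and 0.48.

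Cytoskeleton, calcium and adhesion lists added few members. Of 18 measured cytoskeleton genes 1 was higher (5.56%), of 35 calcium genes 2 (5.71%) and of 27 cadherins and protocadherins 2 (7.41%). In these lists 0 were lower. Of 67 synaptic adhesion and immunoglobulin genes, 2 were higher (2.99%) and 1 was lower (1.49%). Over all genes the shares were 1.31% higher and 1.86% lower. Nefh, the heavy neurofilament, had means of 37.8, 101 and 106 CPM, and its partners Nefl and Nefm averaged 0.63 and 0.49 above P8. Calb1, the calcium buffer calbindin, had 12.6, 89 and 35.6 CPM with a fragment in 13.9%, 28.6% and 20.7% of cells, and the second set gave only 0.29 at P12. Cacna2d3, an accessory calcium channel subunit, stayed under 10 CPM. Clstn2, a calsyntenin of the postsynaptic membrane, was higher over the whole distribution, with medians per cell of 57.2, 129 and 164 CPM and means of 60.9, 145 and 178 CPM. The first set gave 1.22 and 1.73 and the second 1.15 and 1.18, while cells without Xist gave 0.99 and 1.13. Nrxn3, a presynaptic neurexin, had means of 136, 279 and 368 CPM and 156 at P14. Its second set gave 0.30 at P10. Cntnap4, a contactin-associated protein, was at 0.32, 12.5 and 28.7 CPM with a fragment in 1, 5 and 3 cells. Cdh7, a cadherin, was at 23.6, 53.5 and 63.3 CPM, but its first set gave 0.68 and -0.75.

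Few axon guidance genes met the rule. Of 43 measured, 2 were higher (4.65%, against 1.31% of all genes) and 1 was lower (2.33%, against 1.86%). The medians were 0.18 and -0.01. Efnb2, an ephrin ligand, had means of 24.3, 74.7 and 75.5 CPM, yet its second set gave 0.39 and -0.54. Unc5d, a netrin receptor relative, had 4.93, 19.3 and 19.5 CPM. Epha7, a receptor for ephrin-A ligands, was lower at 30.7, 10.8 and 2.27 CPM, and a first-set P10 difference of 1.73 ran opposite to the second-set value of -2.46. Lrrn3, a leucine-rich repeat membrane protein from the synaptic adhesion list, was lower at 148, 64.3 and 55.1 CPM, with 1 P8 cell at 1418 CPM. None of these 4 genes met the rule in both sets.

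Several named higher genes have roles in metabolism or membranes, a grouping made after their values were seen. Acad11 (chromosome 9, 104063377 to 104127725), an acyl-CoA dehydrogenase, had the largest smaller difference, at 2.57, with means of 3.19, 44.1 and 43.5 CPM (limma log2 2.57 ± 0.43 SE, unadjusted p = 0.000154, adjusted p = 0.438). It had a fragment in 13.9%, 36.7% and 34.5% of cells, and P4 stood at 12.7 CPM, so P8 was its lowest age. Abcg1 (chromosome 17, 31057675 to 31117988), a cholesterol exporter, had medians per cell of 12.7, 163 and 90.7 CPM and means of 44.4, 200.3 and 173 CPM (limma log2 1.95 ± 0.31 SE, unadjusted p = 0.000119, adjusted p = 0.438). Of the 14 named higher genes, Abcg1 and Acad11 met the rule in all 13 alternatives of processing or choice of cells. Tusc5, a membrane protein studied in fat cells, had means of 198, 963 and 1267 CPM, a fragment in 44.4%, 59.2% and 82.8% of cells, and 1165 CPM at P14. Its first set gave 0.65 at P10. Mgarp, a mitochondrial protein, had means of 11.9, 24.2, 41.4, 135, 256 and 346 CPM from P4 to P14. Aldoc, a glycolytic aldolase, had means of 78.2, 173 and 418 CPM. It was the 1 called member of 19 measured glycolytic genes (5.26%, against 1.31% of all genes called higher). Of 33 measured nuclear genes of oxidative phosphorylation and 26 of cholesterol and lipid synthesis, 0 met the rule.

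Other higher genes belong to no list. Aifm1, an X-linked mitochondrial flavoprotein, had means of 15.3, 65.7 and 58.4 CPM, and Fen1, a flap endonuclease of DNA repair, 0.49, 29.7 and 14.2 CPM. For both of them and for Asb1 (12.9, 50.1 and 82.5 CPM) P8 was the lowest of the 6 ages. Fzd1, a Wnt receptor, had 5.21, 25.6 and 29.3 CPM, but the second set gave 0.39 and 0.76 and cells without Xist 0.87 at P10. D17H6S53E and the predicted gene Gm43175 complete the 14 named higher genes. Of 51 measured neural transcription factors 0 met the rule. Pou4f1, which specifies sensory and ganglion neurons, came close, with means of 769, 1605 and 1494 CPM and differences of 1.06 and 0.95.

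Genes of immature neurons were lower as a list. Of 25 measured genes of immature neurons and growth cones, 17 lay below P8 at both ages (68%, against 36.7% of all genes) and 2 lay above. The medians were -0.40 and -0.69, and 2 members met the rule as lower (8%, against 1.86% of all genes). Cd24a (chromosome 10, 43578284 to 43584265), a membrane-anchored glycoprotein of young neurons, ran from 0 to 1273 CPM at P8 with a median of 214, and had a median of 0 at P10 and P12 with highest cells of 488 and 535 CPM. It had a fragment in 94.4% of P8 cells, 44.9% of P10 cells and 24.1% of P12 cells, and in 94.4%, 40.8% and 20.7% after thinning. Nearly all P8 cells had the transcript and most P12 cells did not, although single late cells lay above the P8 median. Means were 714 at P4, 557 at P5, then 319, 74.3 and 47.7, and 18.8 CPM at P14 (limma log2 -2.33 ± 0.67 SE, unadjusted p = 0.00644, adjusted p = 0.643). It met the rule in all 13 alternatives.

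St8sia2 (chromosome 7, 73939119 to 74013690), a sialyltransferase that builds polysialic acid on the neural cell adhesion molecule, was lower as well. It ran from 0 to 321 CPM at P8 with a median of 37.2, and had a median of 0 at P10 and P12. Its fragment was found in 77.8%, 22.4% and 10.3% of cells, and a single P12 cell of 204 CPM held 94.7% of that pool's total. Means were 77.6, 22.4 and 7.42 CPM, down from 158 at P4 and 214 at P5 (limma log2 -2.16 ± 0.73 SE, unadjusted p = 0.0153, adjusted p = 0.643). Dcx, the microtubule protein doublecortin, narrowly missed the rule at P10, with means of 243, 125 and 100.4 CPM and a fragment in 100%, 73.5% and 41.4% of cells. Stmn1, stathmin, had means of 1290, 682 and 612 CPM. Gap43, the growth-associated protein, differed by -0.01 and -0.13, with means of 1859, 1844 and 1704 CPM, and so did not follow the list.

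Ribosomal protein genes lay below P8 more often than any other list with more than 1 measured gene. Of 41 measured, 36 were lower at both ages (87.8%, against 36.7% of all genes) and 0 higher at both. Only Rpl10 and Rpl13 met the rule (4.88%, against 1.86% of all genes). The medians were -0.47 and -0.45. Rpl13 had a fragment in 100%, 91.8% and 86.2% of cells, and its medians per cell were 108, 43.8 and 36.2 CPM. Its means were 121, 50.5 and 39.5 CPM, and 81.8 CPM at P14, and the second set of cells gave only -0.74 and -0.99. Summed over the list, the level was 5407 CPM at P8, 3815 at P10 and 3783 at P12. The ribosomal RNA transcript CT010467.1 was also lower, with means of 60415, 35725 and 35487 CPM, and 75239 at P14. Its levels, those of the list and the number of genes detected were all higher at P8 than at P10 and P12, and the part of one in another was not tested.

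Most other named lower genes were at 20 to 60 CPM at P8 and under 15 CPM later. Selenon, an endoplasmic reticulum selenoprotein, had means of 43.4, 8.67 and 6.17 CPM, with a fragment in 55.6%, 24.5% and 13.8% of cells. Tmem97, the sigma-2 receptor, had 58, 14.5 and 14 CPM, with 63.9%, 34.7% and 13.8% of cells. Both met the rule in all 13 alternatives. Wdr59, a regulator of nutrient signalling, had 26.3, 3.83 and 3.55 CPM and stood at 28.6 again at P14. Pknox1, a homeodomain factor (24.5, 3.82 and 3.61 CPM), and Cdc42ep4, an effector of the GTPase Cdc42 (36.1, 7.47 and 0.61 CPM), were lower in both sets. For Selenon, Cdc42ep4, Tmem97 and Rarb, a retinoic acid receptor (26.8, 3.93 and 4.72 CPM), P8 was the highest of the 6 ages. Their low levels go with the lower detection at P12, whose part was not tested.

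A single cell held most of the microglial RNA at P8. C1qb had means of 146, 28.2 and 13.6 CPM and a median of 0 at each age, and Tyrobp, Laptm5 and Spp1 also had a median of 0 at each age. Laptm5 and Spp1 are not on the microglial list. One P8 cell, despite the CD11b gate, had 5174 CPM of C1qb, 7552 of Spp1, 1786 of Tyrobp and 1607 of Laptm5, and a summed microglial list of 24497 CPM beside 6534 CPM for the ganglion cell list. Without cells led by another type's markers, the log2 values of Spp1, C1qb, Tyrobp and Laptm5 turned positive (2.095, 1.81, 1.32 and 0.84). Of 8 measured microglial markers 4 had been lower by the rule (50%, against 1.86% of all genes). The count of 211 lower genes includes that P8 cell. Among rod photoreceptor markers, Sag had means of 9.58, 21.7 and 7.56 CPM and Pdc 8.29, 14.6 and 12.7 CPM, with medians of 0 at each age. The rod list's sum, 4140, 6446 and 7609 CPM, is mostly Gnb1, a G protein subunit that ganglion cells express themselves. Summed over all listed genes, cone markers came to 3.27, 1.28 and 9.21 CPM and vascular markers to 11.8, 19.9 and 41.4 CPM. Of these lists only 2 of 9 cone genes and 1 of 12 vascular genes passed the filter on low values, and no measured bipolar, amacrine, Muller glial or astrocyte marker met the rule. Of 5 measured horizontal cell markers 1 did (20%, against 1.31% of all genes called higher). That was Calb1, which is also a marker on the ON-OFF list.

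**Figure D5:**
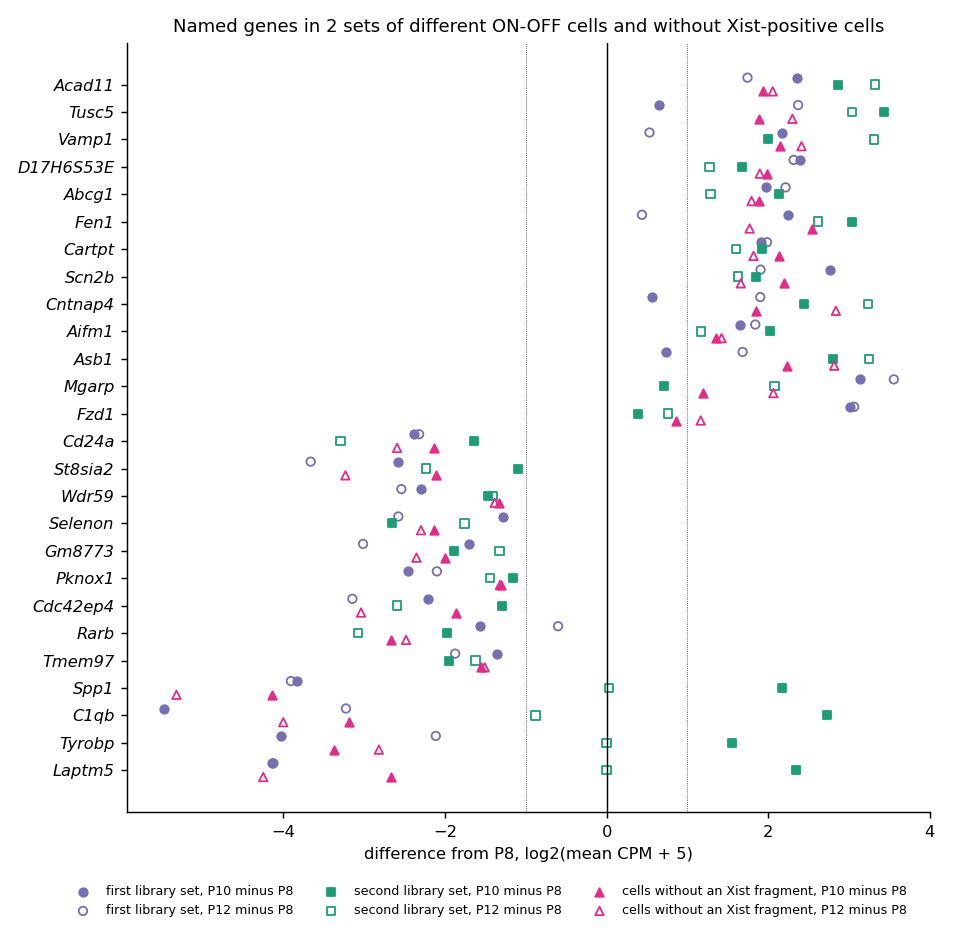
Difference from P8 in log2(mean CPM + 5) (x axis) for 26 called genes (y axis) in the first and second set of libraries and in ON-OFF cells without an Xist fragment, with filled symbols for P10 and open ones for P12. The last 4 genes, Spp1, C1qb, Tyrobp and Laptm5, are lower in the first set and higher in the second at P10. Cartpt, Scn2b, Abcg1, Cd24a and St8sia2 lie beyond 1 or -1 in every subset shown.

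ON cells, with their own P8 pools, served to ask which differences were shared. Their makeup by Xist also differed between ages. A fragment was found in 14 of 28, 16 of 45 and 43 of 43 ON up cells at P8, P10 and P12. In ON down cells it was found in 23 of 31, 6 of 32 and 40 of 40. Age and this makeup cannot be told apart in the ON pools either. At both later ages 83 genes were higher (0.73%) and 117 lower (1.03%) in ON up cells, together 1.76%. In ON down cells 102 were higher (0.897%) and 303 lower (2.67%), together 3.56%. limma called 0 genes in ON cells, where 776 (6.83%) had an unadjusted p under 0.05, 375 of them higher (3.3%) and 401 lower (3.53%). Of the 149 genes higher in ON-OFF cells, 96 had a positive mean difference in ON cells (64.4%, against 46.9% of all genes), and of the 211 lower ones 151 had a negative one (71.6%, against 53.1%). No higher gene and 4 lower genes met the rule in all 3 groups, namely Grm3, St8sia2, Cand2 and Zfp182. St8sia2 differed by -1.24 and -2.69 in ON up cells and by -1.57 and -2.47 in ON down cells. Cd24a differed by -1.44 and -2.91, and by -0.86 and -2.30, and Cartpt by 0.96 and 2.70, and by 3.07 and 4.95. In ON down cells Cartpt thus went from 11.7 to 511 CPM between P8 and P12, while ON up cells reached 93.8 CPM. In both ON groups Scn2b was likewise higher at P12, at 1027 and 975 CPM.

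The change in ON-OFF cells minus that in ON cells was tested in the same limma fit, and again no gene passed (smallest adjusted p 0.993), with 432 genes (3.8%) at an unadjusted p under 0.05, 215 of them higher (1.89%) and 217 lower (1.91%). No gene can therefore be called particular to ON-OFF cells. Makeup by Xist shifted with age in unlike ways in ON-OFF and ON cells, and its part in this contrast was not tested. Among the genes with the smallest unadjusted p, Acad11 differed by 2.59 ± 0.52 SE, Oat, an ornithine aminotransferase, by 1.93 ± 0.38, and Tusc5 by 2.28 ± 0.49. Oat had 34.6, 115 and 101 CPM in ON-OFF cells against 71.7, 59.9 and 55.6 CPM in ON up cells. On the lower side Znrf2, a ubiquitin ligase, differed by -2.25 ± 0.49 and Smoc1, a secreted calcium-binding protein, by -2.42 ± 0.58. Smoc1 had a fragment in 9 of 36, 2 of 49 and 1 of 29 ON-OFF cells.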

How the data were processed

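Per the submitters' processing notes, the authors worked on GRCm38.p6 (mm10) with Cuffnorm, Cufflinks 2.2.1, HISAT2 2.1.0, R 3.5.1 and SAMtools 1.3.1. No source used here gives the part or the options of each. The gene table the authors deposited holds a signal, estimated fragments divided by a size factor for each cell, and the size factor is a ratio that the authors deposited beside it. Multiplied back, 96.2% of nonzero entries came within 0.05 of whole fragments and the rest did not. The entries were treated as a signal and no count model was used, although one had been planned for counts. The authors' FPKM table (fragments scaled by transcript length and depth) served as an alternative. The table held 92.5% to 96.1% of each cell's mapped mass.

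Each cell was scaled to a common total (CPM) and averaged within its pool. Genes with a mean of 5 CPM over the 9 pools were kept (11367 of 53374). limma 3.58.1 in R 4.3.3 (trend and robust) was fitted to log2(CPM + 5) with 6 group means and 3 residual degrees of freedom, where P10 and P12 of a group shared a mean. Code was tested on simulated data. Named genes were the 14 in each direction with the largest smaller difference, among called genes of at least 10 CPM over the ON-OFF pools, plus called list members, cell type markers and the 6 in each direction whose change differed most from ON cells. Scn1a, Scn8a, Gria2, Slc12a5, Lynx1, Chrna6, Chrnb3, Snap25, Nefl, Nefm, Dcx, Stmn1 and Gap43 are list members named after their values were seen. The cells compared and the lists were chosen with earlier results of these data known. Alternatives changed the pseudocount, filter, pool value, table, scaling, cells, library set and fold. No 2 cells had identical values, and the highest correlation between cells was 0.601. Per-sample columns without a sample numbered 0. Results for some list members are not reported here.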

Additional observations from a re-analysis of the deposited data

Results flagged for a closer look

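In Rarb and Gm8773 both ON-OFF differences from P8 were negative and all 4 ON differences positive. Rarb, a retinoic acid receptor, had a change in ON-OFF cells that differed from the one in ON cells by -2.3 on the log2 scale (limma, unadjusted p = 0.00489). For the predicted gene Gm8773 the value was -2.4 (limma, unadjusted p = 0.00924). The adjusted p was 0.999 for each, so the difference between ON-OFF and ON cells did not pass for either of them.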

How the results depend on the processing

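In ON-OFF cells limma called 0 genes, against 992 with no filter, 1 with fragments summed over cells, 1 with the FPKM table, 2 in the first library set and 1 with the ON-OFF pools alone. For ON cells it called 3205 with no filter, 9 with a pseudocount of 20 CPM, 3 with the mean of logs and 1 in the second set, and for the difference 3318 with no filter and 1 with the FPKM table. The cause was not tested. The 149 higher genes became 335 with a pseudocount of 1 CPM, 32 with 20 CPM, 21 with the mean of logs, 99 with the FPKM table, 339 and 342 in the first and second set, 578 at 1.5-fold, 3 at 4-fold, 357 without Xist-positive cells, and 454 to 668 when either later age was left out. The 211 lower genes became 317 with a filter of 1 CPM, 339 with none, 439 with a pseudocount of 1 CPM, 27 with 20 CPM, 568 with the mean of logs, 317 without the highest cell per gene, 108 with the FPKM table, 601 and 423 in the sets, 912 at 1.5-fold, 4 at 4-fold, 434 without Xist-positive cells, and 473 to 1536 when either later age was left out. With 1 later age and 1 pool a group, limma has no residual degrees of freedom, so those are values with no test. By the 2-fold rule, 2 higher and 3 lower genes of the 28 named held in all 13 settings. No named gene passed limma at first, so keeping that side of its threshold shows no stability. Of 525 values of named genes, 7 newly passed and 13 reversed, all 13 in Spp1, C1qb, Tyrobp and Laptm5. Spp1 came to 0.14 with the mean of logs, 1.48 without the highest cell, 2.095 without cells led by other markers and 1.10 in the second set. C1qb came to 1.81 and 0.92 under the last pair of these, Tyrobp to 0.019, 0.34, 1.32 and 0.77, and Laptm5 to 0.058 without the highest cell, 0.84 without cells led by other markers and 1.18 in the second set. No paired analysis was possible because each group at an age is 1 pool, and cell numbers only name cells.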
